A study of Mus musculus with 8 samples.

Results

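The transcripts described here come from 54 genes that act in the G2 phase of the cell cycle and in mitosis: cyclins, mitotic kinases, spindle checkpoint and kinetochore proteins, spindle motors, cytokinesis proteins and condensin. Members are the rows of the count table whose symbol is on a list, which was drawn up with results of these libraries known. All 54 were found among the 24259 genes of the count table, and all 54 passed the filter on low counts that left 12744 genes for testing. Their RNA was measured in B cells that bind the hapten NP, carry B220 and little IgD, and are on the way into the germinal center. The cells were sorted from lymph nodes of mice on the C57BL/6 background 3 days after immunization with NP-OVA in alum with LPS. The recipients lacked SAP, an adaptor without which a host's own T cells give little help to germinal center B cells, and had received OT-II T cells, which recognise an ovalbumin peptide. To ask how B cells differ when their helpers have lost 1 copy of Bcl6, the HET group came from mice given CD4-Cre x Bcl6 fl/+ OT-II T cells and the WT group from mice given OT-II T cells with CD4-Cre alone. Both groups therefore share the Cre transgene in the transferred T cells and the Sap-/- hosts; the ages of the mice are not given in the sources used here. The Cd4 promoter drives Cre in T cells, so the deletion was not in the sequenced B cells and no targeted gene was there to check the group names. Cells from the recipients of a group were pooled before 4 samples of about 200 cells each were sorted. The spread within a group is thus that of sorting and library preparation, p-values measure that spread only, and genotype and pool cannot be told apart.

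Cells enter mitosis when cyclin B and CDK1 together become active at the end of G2. Chromosomes are then condensed, captured by spindle microtubules at the kinetochores, and held under a checkpoint until CDC20 activates the anaphase-promoting complex, after which cytokinesis separates the daughter cells. B cells that receive T cell help divide quickly before and within germinal centers, and transcripts of these genes accumulate as a cell nears division. In RNA from about 200 cells, fewer cells near mitosis and less of this RNA per cell cannot be told apart.

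Total counts ranged from 6652386 to 12559189 per library, so that 3 counts corresponded to 0.239 to 0.451 CPM (counts scaled to a common library size after TMM normalization). The 6 library measures compared (total counts, genes detected, and the shares of mitochondrial, immunoglobulin, ribosomal RNA and ribosomal protein transcripts) did not pass a two-sided exact permutation test between groups (adjusted p from 0.729 to 0.971). The smallest possible unadjusted p of this test is 0.0286, so a single measure that differed could not have passed after adjustment over the 6. All 10 B cell markers were present, with a summed level of 22173 to 23450 CPM in HET and 25334 to 28075 CPM in WT, and 0 of the 10 had a higher fitted level in HET. At an unadjusted p under 0.05 in edgeR, 8 of the 10 were lower in HET, against 3.88% of all genes tested. DESeq2 called 2 of them as lower, against 0.409% of the genes to which it gave an adjusted p. Among 12 T cell markers, 11 passed the filter and 10 of these were higher in HET. The T cell sum was 324 to 630 CPM in HET and 181 to 466 CPM in WT, and Cd4 itself had at most 7 counts in any library. For antibody-secreting cells the sum was 301 to 2159 CPM in HET and 251 to 564 CPM in WT (5 of 7 tested markers higher in HET). The NK cell sum was 45.6 to 178 CPM in HET and 37.7 to 107 CPM in WT (6 of 6 higher), and the myeloid sum was 14.8 to 51.0 CPM and 20.4 to 424 CPM (1 of 5 higher). Erythroid markers summed to 4.85 to 9.33 CPM and 5.11 to 7.21 CPM. HET replicate 4, the library richest in mitosis transcripts, had the smallest T cell and NK cell sums of its group. WT replicate 4, the poorest, had the smallest NK cell sum of the 8 libraries and 243 CPM of T cell markers. Its median ratio to the mean of the other WT libraries was 0.630 over the T cell markers, 0.537 over the NK cell markers, 0.980 over the B cell markers and 1.90 over the markers of antibody-secreting cells. The part of other cells in the mitosis transcripts was not tested.

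One library stood apart from the rest in the mitosis genes. WT replicate 4 held the lowest of the 8 values for 40 of the 54 genes, where it held the lowest value for 13.3% of all genes tested. Its median ratio to the mean of the other WT libraries was 0.495 over the 54 genes and 0.979 over all genes tested. The score difference and the main counts over the list are therefore given with and without it, and single genes in part.

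Averaged over the 54 genes, mitosis transcripts were higher in B cells helped by HET T cells. The mean log2 CPM of the 54 genes was 4.78, 4.68, 4.88 and 5.27 in HET replicates 1 to 4 and 4.52, 4.45, 4.27 and 3.09 in WT replicates 1 to 4. Every HET library lay above every WT library. The group means were 4.90 ± 0.26 in HET and 4.08 ± 0.67 in WT (SD, n = 4 each), a difference of 0.82 on the log2 scale that shrank to 0.49 without WT replicate 4. Summed over the genes, the level was 2045 to 2736 CPM in HET and 967 to 1863 CPM in WT. No p-value is given for these scores, because of how the list was drawn up.

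**Figure D1:**
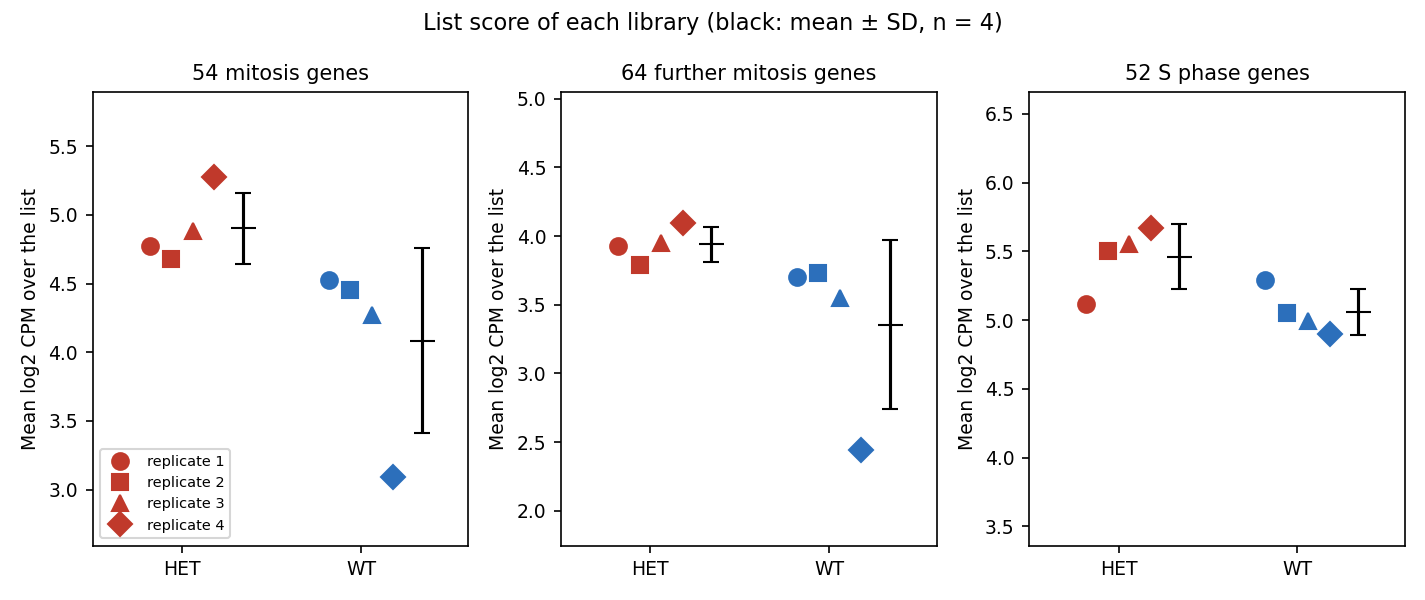
Mean log2 CPM of each library (y axis) by group (x axis) over the 54 mitosis genes, 64 further mitosis genes and 52 S phase genes, with marker shapes for the replicates and black bars for mean ± SD. In the first panel the HET libraries sit between 4.68 and 5.27 and the WT libraries between 3.09 and 4.52, with WT replicate 4 far below the others in both mitosis panels and close to them in the S phase panel.

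Gene by gene, the shift went the same way for nearly the whole list. The fitted log2 fold change of HET over WT was above 0 for 51 of the 54 genes, against 49.9% of all genes tested, with a median of 0.67 against -0.0014 over all genes. Without WT replicate 4 it was above 0 for 50 of 54, against 50.6% of all genes, with a median of 0.46. By the quasi-likelihood test of edgeR with Benjamini-Hochberg adjustment, 0 of the 54 reached an adjusted p under 0.05, where 0% of all genes passed as higher in HET and 0.0235% as lower. DESeq2 with the same adjustment called 4 of the 54 as higher and 0 as lower, against 0.247% and 0.409% of the genes to which it gave an adjusted p. With edgeR's unadjusted p under 0.05 as the limit, 16 of the 54 passed as higher in HET (3.34% of all genes) and 0 as lower (3.88% of all genes). This count was 12 without WT replicate 4, against 2.9% of all genes, 11 without HET replicate 4, against 2.81%, and 8 without both, against 2.39%. The shares with every library, 3.34% and 3.88%, also stand beside the counts at this limit for the role groups and other lists below. All 4 HET values lay above all 4 WT values for 10 of the 54 genes (1.99% of all genes), and the reverse held for 0 (2.62% of all genes). The 10 were Ccnb2, Cks1b, Ncaph, Nuf2, Racgap1, Cenpe, Cdca8, Ttk, Smc2 and Cenpf. Leaving out a library leaves fewer values to overlap, and without WT replicate 2 there were 16 such genes, against 4.3% of all genes in the same fit.

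**Figure D2:**
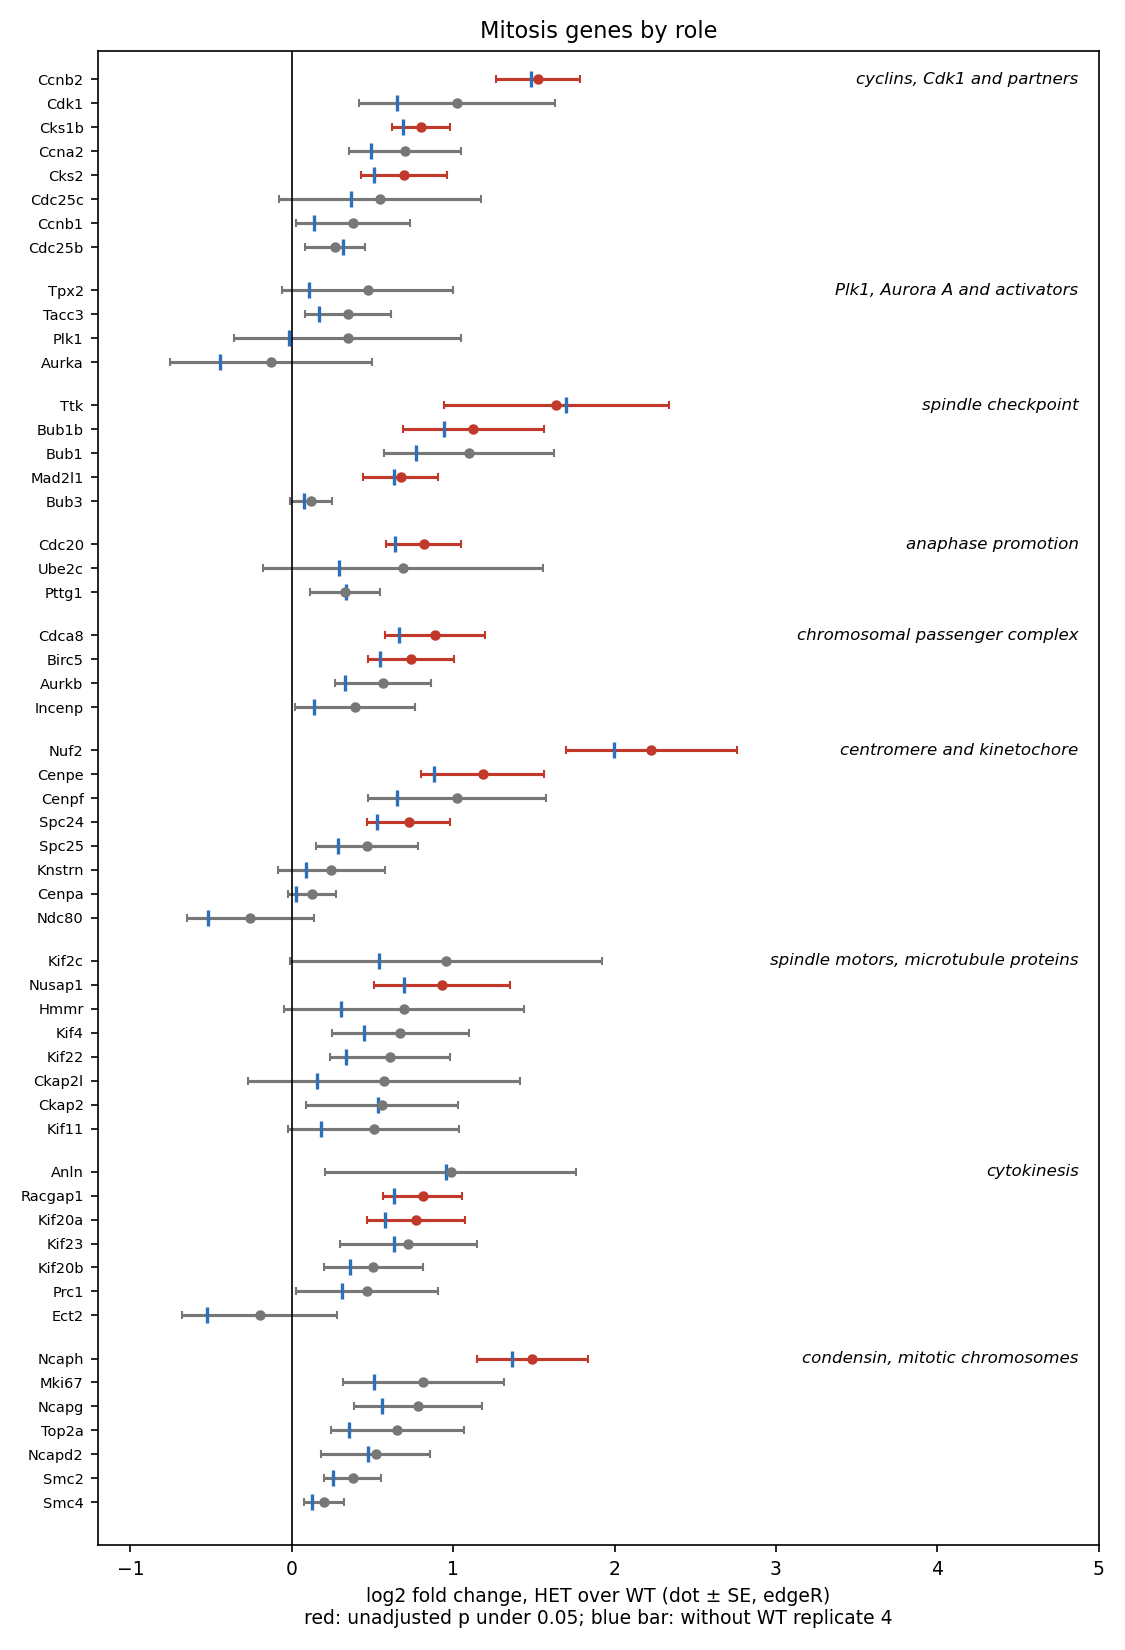
Log2 fold change of HET over WT (x axis, dot ± SE from edgeR) for each of the 54 genes (y axis, in blocks by role), with red for an unadjusted p under 0.05 and a blue bar for the value without WT replicate 4. Dots lie right of 0 for 51 genes, 16 are red, and Ndc80, Ect2 and Aurka lie left of 0.

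The promoters of such genes are known for a shared layout, in which the CHR element (TTTGAA), a binding site of the DREAM and B-MYB-containing complexes near the start, stands downstream of CCAAT boxes, which bind NF-Y. To show how far the list shares it, RefSeq promoter windows on GRCm38.p6 (250 bases before to 50 after each start) were searched on both strands, and 46 of the 54 genes had a window. TTTGAA or its complement TTCAAA occurred in 33 of the 46 (71.7%), against 20.2% of all 27025 genes with a window. CCAAT or ATTGG occurred in 34 of 46 (73.9%) against 41.1%, and both motifs together in 29 of 46 (63.0%) against 7.97%. TATAAA, the TATA box, was in 1 of 46 (2.17%) against 15.7%. Of 36 member windows with TTTGAA, 31 held it within 50 bases of the start, taking the match nearest the start. This share was not computed over all genes. The promoters below are those of 3 of the genes with the lowest p-values (Ccnb2, Cks1b, Ncaph), of Cdc20, and of Cdk1 and Ube2c, which were among the least abundant members of WT replicate 4 relative to the other WT libraries. Each runs 5′ to 3′ along the gene, from 150 bases before to 30 after the start, with the CHR motif and the CCAAT box, on either strand, in capitals.
Ccnb2 (chr9:70421525-70421704, minus strand): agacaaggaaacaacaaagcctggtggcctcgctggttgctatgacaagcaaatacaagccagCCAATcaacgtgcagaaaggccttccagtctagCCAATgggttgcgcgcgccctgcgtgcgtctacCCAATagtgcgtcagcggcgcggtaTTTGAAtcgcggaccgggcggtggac
Cks1b (chr3:89418262-89418441, minus strand): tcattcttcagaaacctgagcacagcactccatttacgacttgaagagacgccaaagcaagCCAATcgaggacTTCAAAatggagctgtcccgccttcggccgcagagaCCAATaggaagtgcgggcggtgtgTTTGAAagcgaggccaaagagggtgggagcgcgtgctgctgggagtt
Cdc20 (chr4:118437314-118437493, minus strand): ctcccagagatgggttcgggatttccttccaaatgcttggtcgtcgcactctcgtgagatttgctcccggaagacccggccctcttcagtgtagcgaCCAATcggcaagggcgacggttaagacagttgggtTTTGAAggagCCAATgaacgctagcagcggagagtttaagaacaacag
Cdk1 (chr10:69352883-69353062, minus strand): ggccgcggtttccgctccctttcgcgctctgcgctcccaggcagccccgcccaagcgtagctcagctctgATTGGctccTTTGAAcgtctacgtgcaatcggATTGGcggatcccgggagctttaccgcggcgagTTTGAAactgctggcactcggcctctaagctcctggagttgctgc
Ube2c (chr2:164769779-164769958, plus strand): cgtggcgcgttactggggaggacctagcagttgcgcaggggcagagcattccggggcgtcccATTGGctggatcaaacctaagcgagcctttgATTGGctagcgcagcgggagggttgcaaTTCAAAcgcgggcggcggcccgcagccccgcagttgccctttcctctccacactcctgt
Ncaph (chr2:127133925-127134104, minus strand): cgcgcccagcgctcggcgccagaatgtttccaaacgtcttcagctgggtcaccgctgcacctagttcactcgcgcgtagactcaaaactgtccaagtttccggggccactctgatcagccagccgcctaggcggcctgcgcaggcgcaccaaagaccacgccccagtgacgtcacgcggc
The printed stretch of Ccnb2 holds 3 CCAAT boxes and then TTTGAA 5 bases after the start. Cks1b and Cdc20 hold TTTGAA 17 and 18 bases before it. Ncaph holds neither motif in the whole window. The CHR variant TTCGAA occurred in 8.70% of members and 1.80% of all genes, and the E2F motifs TTTGGCGC and TTTCCCGC each in 2.17% of members and in 0.585% and 1.24% of all genes. Such matches describe letters in a window and not bound sites. The median log2 fold change was 0.67 over the 33 genes with TTTGAA (30 above 0, 7 at an unadjusted p under 0.05). It was 0.70 over the 13 genes with a window but without TTTGAA (13 above 0, 7 at an unadjusted p under 0.05). Among those 13, Bub1 and Cdc25b hold the variant TTCGAA.

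Cyclin B2 transcripts showed the lowest p-value of the list. All 8 genes of the cyclins, Cdk1 and their partners had log2 fold changes above 0, from 0.27 to 1.53, and 3 of the 8 had an unadjusted p under 0.05. Ccnb2 (chr9:70407692-70421547, minus strand, GRCm38), a mitotic cyclin partner of CDK1, was measured at 82.6, 41.8, 45.5 and 90.2 CPM in HET and at 27.2, 20.6, 22.0 and 20.6 CPM in WT. Its WT values lay close together, and the lowest HET value was above the highest WT value. The log2 fold change was 1.53 ± 0.26 (SE), with an unadjusted p of 4.00e-05 and an adjusted p of 0.0870 in edgeR and 1.68e-05 in DESeq2. It stayed between 1.33 and 1.69 when any 1 library was left out. Cks1b (chr3:89415472-89418383, minus strand), which encodes a small subunit that binds cyclin-dependent kinases, was measured at 83.7, 115, 87.2 and 90.8 CPM in HET and at 65.1, 64.4, 45.4 and 40.8 CPM in WT. With no overlap between the groups, the log2 fold change was 0.80 ± 0.18 (SE), with an adjusted p of 0.233 in edgeR and 0.0086 in DESeq2. Per length, Cks1b was the most abundant member, at a mean of 86.0 TPM, the length-scaled unit of the deposited values, over the 8 libraries, and Ccnb2 stood at 9.40 TPM.

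The remaining cyclins and Cdk1 moved less evenly. Cdk1, the kinase that drives entry into mitosis, was at 46.9, 30.1, 59.0 and 53.5 CPM in HET and at 27.7, 28.5, 34.5 and 2.61 CPM in WT. WT replicate 4 was more than 10-fold below the other WT libraries, and HET replicate 2 fell within the WT range. The log2 fold change of 1.02 ± 0.61 (SE) had an unadjusted p of 0.128, and without WT replicate 4 it was 0.65 with an unadjusted p of 0.0213. Ccnb1, the other B-type mitotic cyclin of the list, was at 29.7, 41.8, 54.7 and 86.4 CPM in HET and at 52.5, 41.2, 50.6 and 18.7 CPM in WT. These groups overlapped widely (log2 fold change 0.38 ± 0.35 SE), and the value was -0.20 without HET replicate 4 and WT replicate 4. Ccna2, the cyclin of S phase and G2, was at 64.0, 76.3, 90.8 and 108 CPM in HET and at 38.7, 97.0, 45.2 and 27.0 CPM in WT. WT replicate 2 fell within the HET range, and the log2 fold change was 0.70 ± 0.35 (SE, unadjusted p = 0.0686). Cks2, the paralog of Cks1b, averaged 76.6 ± 17.3 CPM and 47.2 ± 21.1 CPM (SD, n = 4 each), a log2 fold change of 0.70 ± 0.27 (SE) with an unadjusted p of 0.0210. Ccnb1 and Cks2 each have 3 copies of at least 95% identity over part of their transcript among the counted genes, so their counts are uncertain. Cdc25b and Cdc25c, phosphatases that activate CDK1, had log2 fold changes of 0.27 and 0.55 with unadjusted p of 0.168 and 0.399.

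**Figure D3:**
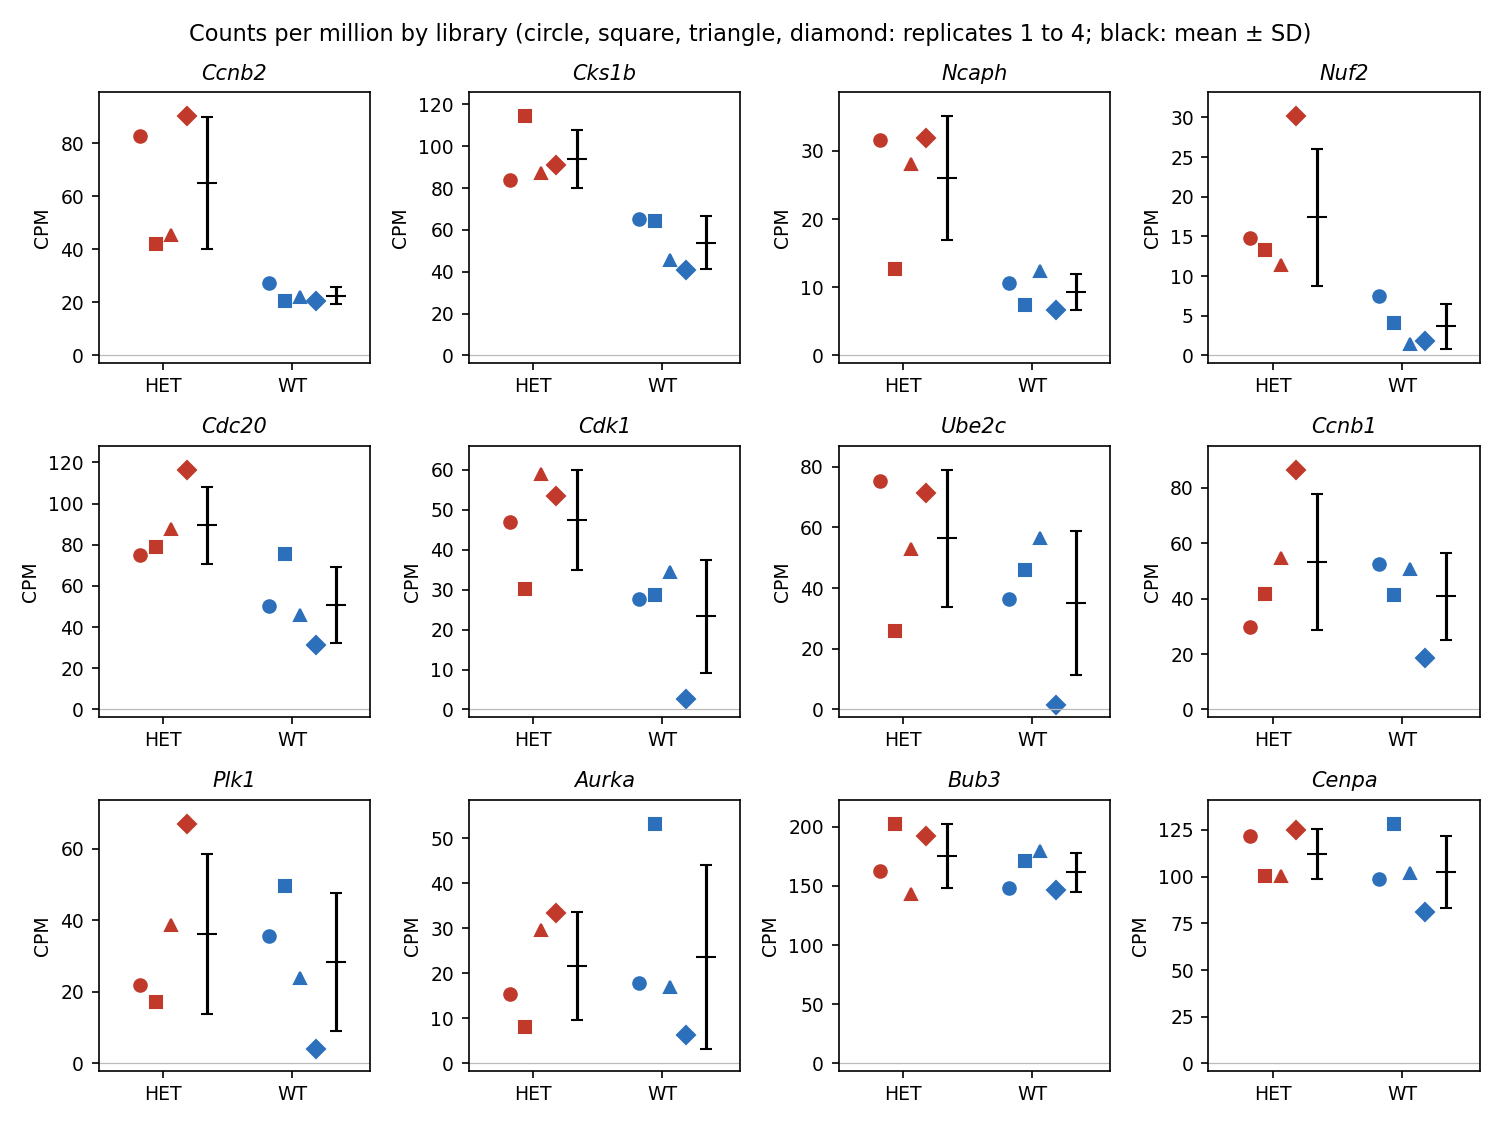
CPM of 12 mitosis genes in each library (y axis) by group (x axis), with marker shapes for replicates 1 to 4 and black bars for mean ± SD. The groups are apart for Ccnb2, Cks1b, Ncaph and Nuf2, WT replicate 4 is near 0 for Cdk1 and Ube2c, and the groups overlap for Ccnb1, Plk1, Aurka, Bub3 and Cenpa.

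The kinases that build the spindle poles had the smallest median of the 9 role groups. Plk1, Aurka and the Aurora A activators Tpx2 and Tacc3 had a median log2 fold change of 0.35, and 0 of the 4 had an unadjusted p under 0.05. The difference in their mean log2 CPM, HET minus WT, was 0.46 with all libraries and -0.10 without WT replicate 4. Plk1 was at 21.9, 17.2, 38.7 and 66.9 CPM in HET and at 35.7, 49.7, 23.9 and 4.07 CPM in WT. Its log2 fold change of 0.35 ± 0.70 (SE) became -0.12 without HET replicate 4 and -0.02 without WT replicate 4. Aurka was at 15.4, 8.03, 29.7 and 33.4 CPM in HET and at 17.9, 53.1, 17.0 and 6.26 CPM in WT, with its highest value in WT replicate 2 and a log2 fold change of -0.13 ± 0.62 (SE). That value was 0.65 without WT replicate 2. Both genes spread more within a group than between the groups.

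Spindle checkpoint genes, whose products delay anaphase until every kinetochore is attached, had the largest median of the 9 role groups. All 5 had log2 fold changes above 0, with a median of 1.10, and 3 had an unadjusted p under 0.05. Ttk, which encodes the checkpoint kinase MPS1, was at 5.39, 7.38, 8.54 and 7.73 CPM in HET and at 0.0950, 3.45, 3.16 and 2.61 CPM in WT. All HET values were higher, but WT replicate 1 held a single count (log2 fold change 1.64 ± 0.70 SE, unadjusted p = 0.0343). Mad2l1, which encodes the MAD2 inhibitor of CDC20, averaged 52.8 ± 13.1 CPM in HET and 33.0 ± 8.24 CPM in WT (SD, n = 4 each), a log2 fold change of 0.67 ± 0.23 (SE). Bub1b, which encodes BUBR1 of the same inhibitory complex, was at 12.1, 31.2, 11.2 and 43.4 CPM in HET and at 15.6, 13.0, 9.47 and 6.68 CPM in WT. Its log2 fold change of 1.12 ± 0.44 (SE) came from HET replicates 2 and 4, since the other HET libraries lay within the WT range. Bub3, a further subunit and the most abundant of the group at 57.2 TPM, averaged 175 ± 27.0 CPM in HET and 161 ± 16.5 CPM in WT (SD, n = 4 each), a log2 fold change of 0.12 ± 0.13 (SE). For Bub1 the log2 fold change was 1.10 with an unadjusted p of 0.0566.

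Among the genes that start anaphase, Cdc20 differed most clearly. Cdc20 (chr4:118432901-118437352, minus strand), the coactivator of the anaphase-promoting complex, was at 75.0, 78.8, 87.8 and 116 CPM in HET and at 50.3, 75.5, 46.1 and 31.1 CPM in WT. Only WT replicate 2 reached the HET range, and the log2 fold change was 0.82 ± 0.23 (SE), with an unadjusted p of 0.00367 and an adjusted p of 0.428 in edgeR. The gene overlaps Elovl1 on the opposite strand, from whose reads its own could not be told apart without strand. The same holds for Ccna2 with Exosc9, Cdca8 with 9930104L06Rik, Kif20a with Cdc23 and Nusap1 with Oip5. Further members that overlap a counted gene on the opposite strand are Cdc25b, Cdc25c, Ckap2l, Kif4, Kif22, Knstrn, Ncapg, Plk1, Prc1 and Tacc3. Ube2c, the ubiquitin-conjugating enzyme of that complex, was at 75.4, 25.9, 53.0 and 71.3 CPM in HET and at 36.4, 45.9, 56.4 and 1.46 CPM in WT. Without WT replicate 4 its log2 fold change was 0.29, against 0.69 ± 0.87 (SE) with all 8 libraries. Pttg1, which encodes securin, had a log2 fold change of 0.33 and an unadjusted p of 0.155.

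All 4 genes of the chromosomal passenger complex, which corrects wrong attachments and later guides cytokinesis, had log2 fold changes above 0, from 0.39 to 0.89. Cdca8, which encodes borealin, was at 37.5, 39.1, 34.5 and 70.8 CPM in HET and at 33.4, 28.4, 24.1 and 12.2 CPM in WT. The groups did not overlap but nearly touched, HET replicate 4 was far above the other HET libraries, and the log2 fold change was 0.89 ± 0.31 (SE, unadjusted p = 0.0129). Birc5, which encodes survivin, averaged 62.7 ± 11.1 CPM in HET and 37.5 ± 16.4 CPM in WT (SD, n = 4 each), a log2 fold change of 0.74 ± 0.27 (SE, unadjusted p = 0.0156). Aurkb, the kinase of the complex, was at 36.5 TPM and averaged 39.0 ± 10.3 CPM against 26.4 ± 9.36 CPM (SD, n = 4 each), a log2 fold change of 0.56 ± 0.30 (SE, unadjusted p = 0.0797) that was 0.33 without WT replicate 4. Incenp, the scaffold, had a log2 fold change of 0.39, and of 0.14 without WT replicate 4.

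Of the 8 centromere and kinetochore genes, 7 had log2 fold changes above 0, and the values spanned the whole range of the list, from -0.26 to 2.23. The NDC80 complex, which grips the microtubule ends, is made of the products of Ndc80, Nuf2, Spc24 and Spc25. Nuf2 (chr1:169497934-169531464, minus strand) was at 14.8, 13.3, 11.4 and 30.2 CPM in HET and at 7.51, 4.06, 1.39 and 1.77 CPM in WT. The groups did not overlap, and the log2 fold change of 2.23 ± 0.53 (SE) was the highest of the 54, with an adjusted p of 0.264 in edgeR and 0.0086 in DESeq2. Ndc80 was at 17.8, 21.9, 21.6 and 18.3 CPM in HET and at 41.0, 12.3, 32.3 and 9.71 CPM in WT, so that its WT values lay on both sides of the HET values. Its log2 fold change of -0.26 ± 0.39 (SE) was the lowest of the 54, and was 0.14 without WT replicate 1. Spc24 averaged 46.8 ± 5.63 CPM in HET and 28.3 ± 10.7 CPM in WT (SD, n = 4 each), a log2 fold change of 0.72 ± 0.26 (SE), and Spc25 had a log2 fold change of 0.46. The differences between the 4 subunits' fold changes were not tested.

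Cenpe, a kinetochore motor, was at 29.7, 31.9, 26.8 and 40.6 CPM in HET and at 22.0, 17.5, 13.0 and 4.28 CPM in WT. Every HET value was above every WT value, and the log2 fold change of 1.18 ± 0.38 (SE, unadjusted p = 0.00783) was 0.88 without WT replicate 4. Cenpf, a large protein of the outer kinetochore, was at 15.7, 13.7, 15.9 and 14.9 CPM in HET and at 5.89, 13.5, 9.34 and 0.835 CPM in WT. Its HET values were close together, WT replicate 2 came near them, and the unadjusted p was 0.0845. Cenpa, the centromeric histone and the most abundant of the group at 52.7 TPM, averaged 112 ± 13.4 CPM and 103 ± 19.4 CPM (SD, n = 4 each), a log2 fold change of 0.13 ± 0.15 (SE). Knstrn, which encodes a kinetochore protein of the spindle, had a log2 fold change of 0.25 with an unadjusted p of 0.474.

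In spindle motors and microtubule proteins, WT replicate 4 stood far below every other library. All 8 genes had log2 fold changes above 0, from 0.51 to 0.96, and only Nusap1 had an unadjusted p under 0.05. Their mean log2 CPM was 3.78, 3.39, 3.99 and 4.62 in HET and 3.73, 3.53, 3.45 and 1.03 in WT, so the difference of 1.01 shrank to 0.37 without WT replicate 4. Nusap1, a microtubule-bundling protein, was at 17.3, 13.1, 22.9 and 23.8 CPM in HET and at 11.8, 5.49, 18.6 and 4.70 CPM in WT, a log2 fold change of 0.93 ± 0.42 (SE, unadjusted p = 0.0447). Without WT replicate 4 that fold change was 0.69, with an unadjusted p of 0.113. Kif22, a motor on chromosome arms and the most abundant of the group at 14.9 TPM, averaged 38.8 ± 17.5 CPM and 25.4 ± 10.9 CPM (SD, n = 4 each), with a log2 fold change of 0.61 that was -0.0073 without HET replicate 4 and WT replicate 4. Kif2c, the microtubule-depolymerizing kinesin, had 0 counts in WT replicate 4, a level below 0.310 CPM, and 6.18 to 11.3 CPM in the other WT libraries. Kif2c, Ckap2l, Ube2c, Hmmr, Cdk1 and Cenpf, grouped after their values were seen, were the 6 genes whose level in WT replicate 4 was under 0.1 of the mean of the other WT libraries. That level was under 0.5 of the mean for 28 of the 54 genes.

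**Figure D4:**
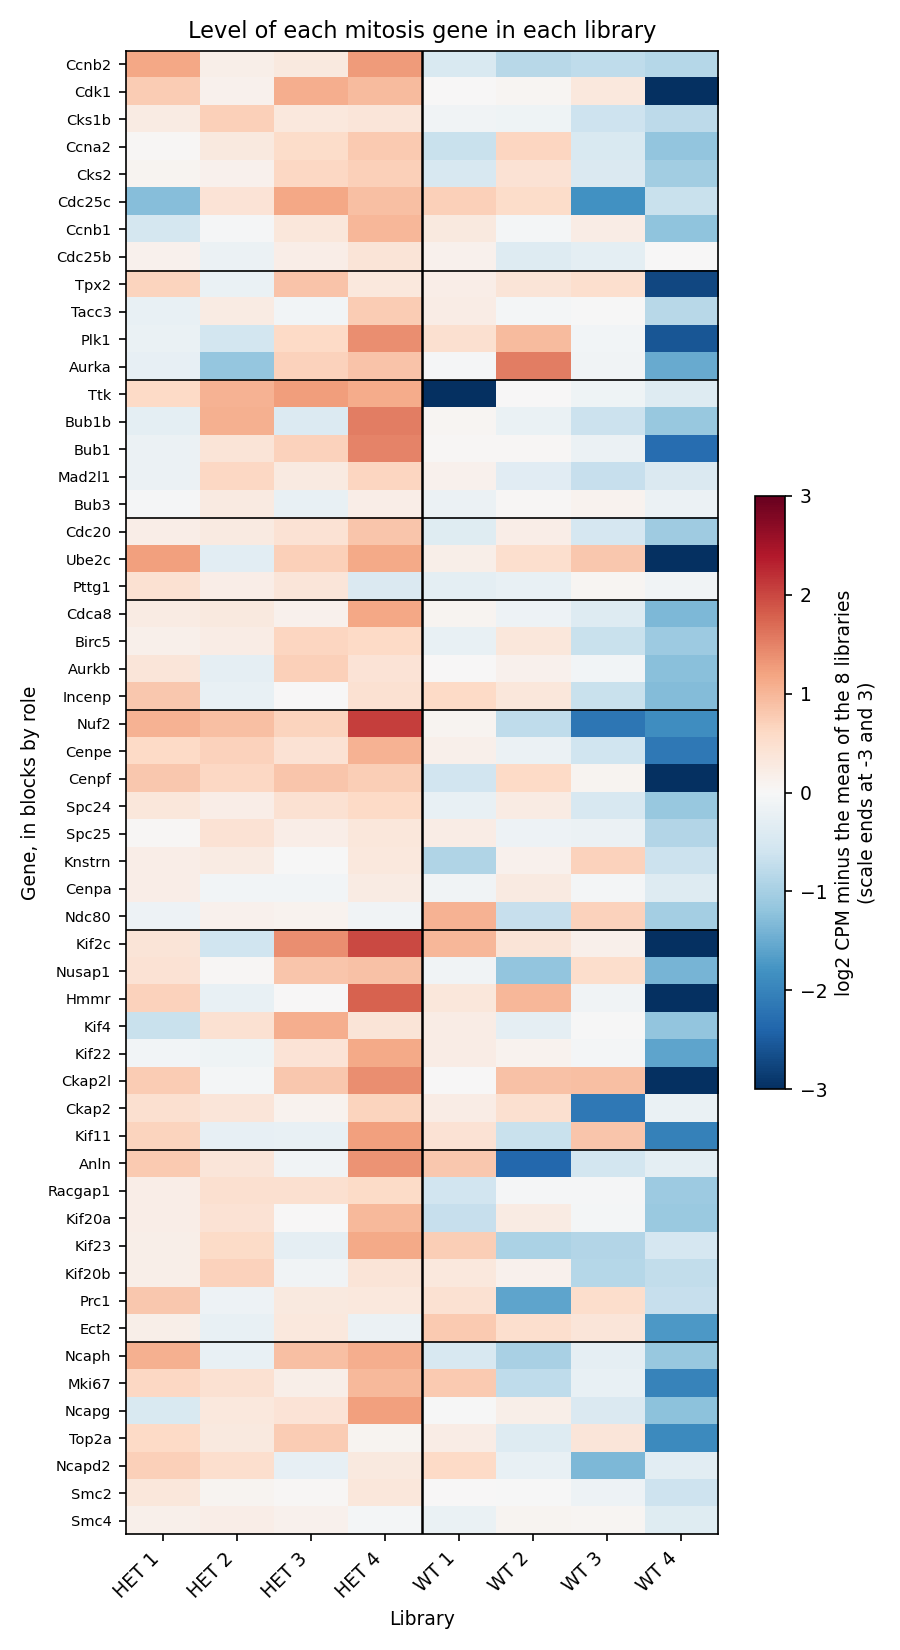
Level of each of the 54 genes (y axis, in blocks by role) in each library (x axis), as log2 CPM minus the gene's mean over the 8 libraries (color scale, cut at both ends). WT replicate 4 holds the lowest value of the row for 40 genes, against 13.3% of all genes tested. HET replicate 4 holds the highest value for 29 genes, without a computed share over all genes.

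In cytokinesis, 6 of the 7 genes had log2 fold changes above 0, and 2 had an unadjusted p under 0.05. Racgap1, a subunit of centralspindlin at the spindle midzone, was at 37.0, 44.8, 45.2 and 48.1 CPM in HET and at 21.7, 31.4, 31.7 and 15.1 CPM in WT. The groups did not overlap, and the log2 fold change of 0.81 ± 0.25 (SE, unadjusted p = 0.00538) was 0.63 without WT replicate 4. Kif23, the motor subunit of the same complex, had a log2 fold change of 0.72 with an unadjusted p of 0.109. Kif20a, a kinesin of the midzone and the most abundant of the group at 16.3 TPM, averaged 40.7 ± 12.7 CPM in HET and 23.9 ± 9.76 CPM in WT (SD, n = 4 each), a log2 fold change of 0.77 ± 0.31 (SE, unadjusted p = 0.0249). Ect2, which activates RhoA at the cleavage furrow, was at 8.36, 6.22, 9.14 and 6.52 CPM in HET and at 12.7, 10.5, 9.47 and 2.09 CPM in WT. WT replicates 1 to 3 were above every HET library and WT replicate 4 below them all, for a log2 fold change of -0.20 ± 0.48 (SE) that was -0.53 without WT replicate 4. Anln, Prc1 and Kif20b had log2 fold changes of 0.98, 0.47 and 0.50, with unadjusted p of 0.226, 0.310 and 0.124, and Anln was the least abundant of the 54 at 0.414 TPM.

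Condensin and the proteins of mitotic chromosomes made up the last group, with all 7 log2 fold changes above 0. Ncaph (chr2:127103809-127133954, minus strand), which encodes the kleisin subunit that closes the condensin I ring, was at 31.6, 12.7, 28.0 and 31.8 CPM in HET and at 10.6, 7.42, 12.4 and 6.68 CPM in WT. HET replicate 2 lay just above the highest WT library, and the other HET libraries were well apart. The log2 fold change was 1.49 ± 0.34 (SE), with an adjusted p of 0.234 in edgeR and 0.0099 in DESeq2. The other subunits differed less: Ncapg had a log2 fold change of 0.78, Ncapd2 of 0.52, Smc2 of 0.38 and Smc4 of 0.20, with unadjusted p from 0.0543 to 0.146. Smc4, an ATPase of condensin and the most abundant of the group at 32.7 TPM, averaged 149 ± 10.8 CPM in HET and 129 ± 18.0 CPM in WT (SD, n = 4 each). Top2a, the topoisomerase that untangles sister chromatids, was at 91.6, 74.1, 103 and 64.5 CPM in HET and at 70.6, 46.6, 78.9 and 16.1 CPM in WT, a log2 fold change of 0.65 ± 0.41 (SE, unadjusted p = 0.148) that was 0.35 without WT replicate 4. Mki67, whose product Ki-67 coats mitotic chromosomes, was at 65.8, 58.8, 48.2 and 84.6 CPM in HET and at 73.8, 25.4, 36.5 and 10.4 CPM in WT, a log2 fold change of 0.82 ± 0.50 (SE, unadjusted p = 0.138) that was 0.51 without WT replicate 4.

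The 16 genes at an unadjusted p under 0.05 did not all keep it when a library was left out. In 8 fits, each without a different library, 10 of them kept it throughout: Ccnb2, Cks1b, Ncaph, Nuf2, Cdc20, Racgap1, Cenpe, Mad2l1, Spc24 and Birc5. In the edgeR fit without WT replicate 4, 11 of the 16 kept it. Nusap1, Kif20a, Cks2, Bub1b and Ttk then had unadjusted p of 0.113, 0.0714, 0.0622, 0.0614 and 0.0508. Across the list the HET libraries varied less than the WT libraries, with a median coefficient of variation of 26.4% in HET and 51.6% in WT, which was 26.9% over WT replicates 1 to 3. A HET library held the highest of the 8 values for 49 of the 54 genes, against 49.8% of all genes tested. HET replicate 4 held it for 29, a count for which the share over all genes was not computed.

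Mitosis genes outside the list lay mostly in the same direction, but they too were chosen with earlier results of these data known. Of 66 further genes of mitosis and its control, 64 were tested. Log2 fold changes were above 0 for 54, against 49.9% of all genes, with a median of 0.36. An unadjusted p under 0.05 was reached by 14 as higher in HET (3.34% of all genes) and by 0 as lower (3.88% of all genes). Their mean log2 CPM was 3.94 ± 0.13 in HET and 3.36 ± 0.61 in WT (SD, n = 4 each), a difference of 0.58 that was 0.28 without WT replicate 4. The lowest p belonged to Trip13, an ATPase that disassembles the MAD2 checkpoint complex, at 12.1, 29.0, 17.2 and 22.7 CPM in HET and at 3.14, 10.4, 5.05 and 6.47 CPM in WT (log2 fold change 1.69 ± 0.41 SE, adjusted p = 0.269 in edgeR and 0.0159 in DESeq2). In the promoter windows of this list, TTTGAA occurred in 26 of 53 genes (49.1%) and CCAAT or ATTGG in 37 of 53 (69.8%).

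Of 15 transcription factors of the mitotic genes (FOXM1 and subunits of the DREAM, B-MYB and NF-Y complexes), 9 had log2 fold changes above 0. At an unadjusted p under 0.05, 2 were higher and 2 lower in HET, against 3.34% and 3.88% of all genes. Foxm1, an activator of G2 and mitosis genes, was at 7.64, 11.1, 12.6 and 6.98 CPM in HET and at 4.28, 1.83, 1.89 and 3.44 CPM in WT. The groups did not overlap, with WT replicate 4 in the middle of its group, and the log2 fold change was 1.73 ± 0.46 (SE, adjusted p = 0.328 in edgeR and 0.0533 in DESeq2). Mybl2, which encodes B-MYB, was the other gene higher at an unadjusted p under 0.05. It averaged 50.5 ± 19.6 CPM in HET and 15.9 ± 13.5 CPM in WT (SD, n = 4 each), and its groups overlapped. Mybl2 and both lower genes are named after their values were seen. Rbl2, the pocket protein p130 of the repressive DREAM complex, had a log2 fold change of -0.84 ± 0.29 (SE). Lin52, a subunit of the MuvB core that DREAM shares with the activating B-MYB complex, had one of -0.67 ± 0.25 (SE). The other 11 factors had log2 fold changes from -0.28 to 0.24 and unadjusted p of at least 0.159. WT replicate 4 was not low for these factors, at a median ratio of 1.11 to the other WT libraries.

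Subunits of the anaphase-promoting complex, the ubiquitin ligase that Cdc20 activates, had fold changes near 0. Of 16 genes, 10 had log2 fold changes above 0, with a median of 0.05, and 0 had an unadjusted p under 0.05 in edgeR or an adjusted p under 0.05 in DESeq2. The lowest p was that of Anapc4 (log2 fold change 0.46, unadjusted p = 0.0843). Among 12 cohesin genes, which hold sister chromatids together, 4 had log2 fold changes above 0. At an unadjusted p under 0.05, 2 were higher and 2 lower in HET, against 3.34% and 3.88% of all genes. Stag2, a subunit of cohesin and the gene with the lowest p, had a log2 fold change of -0.58 (unadjusted p = 0.00823).

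Genes of S phase, the step before G2, also lay mostly above 0, and WT replicate 4 stood closer to its group, with the lowest of the 8 values for 16 of 52 genes and a median ratio of 0.852 to the other WT libraries. Of 52 genes of DNA replication, 44 had log2 fold changes above 0, against 49.9% of all genes, with a median of 0.35. An unadjusted p under 0.05 was reached by 13 as higher (3.34% of all genes) and by 0 as lower (3.88% of all genes). Their mean log2 CPM was 5.12, 5.50, 5.55 and 5.67 in HET and ranged from 4.90 to 5.29 in WT, and only HET replicate 1 lay within the WT range. The difference of 0.40 was 0.35 without WT replicate 4. Rrm2, a subunit of ribonucleotide reductase, had the lowest p, at 120, 166, 177 and 207 CPM in HET and at 145, 70.3, 66.8 and 80.8 CPM in WT (log2 fold change 0.89 ± 0.24 SE, adjusted p = 0.414 in edgeR and 0.0176 in DESeq2). The mitosis score minus the S phase score was -0.77, -0.60, -0.73 and -1.81 in WT replicates 1 to 4 and ranged from -0.82 to -0.35 in HET. Its group means were -0.56 ± 0.23 in HET and -0.97 ± 0.56 in WT (SD, n = 4 each), and their difference of 0.42 was 0.14 without WT replicate 4. In promoter windows TTTGAA occurred in 6 of 40 S phase genes (15%), below the share in all genes. CCAAT or ATTGG occurred in 25 of the 40 (62.5%), above the share of 41.1% in all genes.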

How the data were processed

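RNA was measured in 8 libraries, 4 HET and 4 WT, grouped by their GEO titles and treatment labels. The authors made libraries with an adapted SMART-Seq2 protocol without molecular identifiers or strand marking, aligned reads to GRCm38 with HISAT2 2.2.1 and counted them per gene with HTSeq; the annotation, and how multiply aligned reads were handled, are not given in the sources used here. Values in the deposited count table are whole read counts, and the deposited TPM table (24232 genes) holds length-scaled values, used for levels per length and as an alternative.

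The counts were fitted in edgeR 4.0.16 (R 4.3.3): filterByExpr (12744 genes, 99.7% of counts), TMM scaling, and a robust quasi-likelihood F-test of HET against WT over all tested genes adjusted by Benjamini-Hochberg, with 0.05 as the threshold. Scores are means of log2 CPM with a prior count of 2. A standard error is the log2 fold change divided by the root of F. The script was tested on simulated data. Alternatives were DESeq2 1.42.0, which the study used, limma 3.58.1 (voom, and trend on log2 TPM with pseudocounts of 1 and 0.1), other scalings, filters and covariates, and leaving out libraries. Single library measures were compared by exact permutation tests over 70 arrangements, whose smallest possible p is 0.0286. Depth floors cover counting error only.

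The members, role groups and other gene lists were chosen with earlier results of these data known. All members are accounted for. Those named with full values have an unadjusted p under 0.05, the highest TPM of their role group or one of the 3 lowest fold changes. Others belong to 11 genes named whatever their result. Ube2c and Cenpf meet none of these rules and were given in full with their values known. Other lists are named by adjusted calls and lowest p, apart from genes said to be named after their values were seen. Positions come from GENCODE M21 and promoters from RefSeq, both on GRCm38. HET replicate 4 and WT replicate 4 were left out together as an alternative chosen after seeing the data.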

Additional observations from a re-analysis of the deposited data

Results flagged for a closer look

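Of 102 groups of 4 libraries examined, 7 held a library that lay farther from its nearest neighbor, relative to the range of the group, than Dixon's critical value allows; chance gives about 5% of groups, or 5.1 of 102. In WT, replicate 4 was singled out in 4 gene scores, all as the low library. For spindle motors and microtubule proteins its mean log2 CPM was 1.03, where the other WT libraries lay between 3.45 and 3.73. For centromere and kinetochore genes it was 2.91 against 4.06 to 4.27, for the genes of anaphase promotion 3.61 against 5.26 to 5.59, and for the further mitosis genes outside the list 2.44 against 3.55 to 3.73. The same library had the highest share of the ribosomal RNA gene CT010467.1 in its group, 7.84% against 6.90% to 7.05%, while HET replicate 4, with the highest mitosis score, held 9.90%. The part of this share in the mitosis scores was not tested.

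In HET, the Cdca8 level of replicate 4, 70.8 CPM, stood above 34.5 to 39.1 CPM in the other HET libraries. The share of immunoglobulin transcripts was 4.46% in HET replicate 1 and 2.07% to 2.23% in the other HET libraries; the mitosis score of that library, 4.78, lay within its group.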

How the results depend on the processing

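The score difference kept its direction in every setting tried, and most other values kept their direction and their side of the threshold. The number of all genes called (3 in edgeR) was 77 in DESeq2, 6 in limma-voom, 0 and 1 in limma-trend on log2(TPM + 1) and log2(TPM + 0.1), 38 without a filter, 7 with a mean of at least 50 counts, 1 with genes detected as a covariate, 8 at an adjusted p of 0.1, and 1 to 6 with any 1 library left out. The number of mitosis genes called (0) was 4 in DESeq2 and 4 without a filter, 1 with a mean of at least 50 counts and 1 at an adjusted p of 0.1. The count at an unadjusted p under 0.05 (16) was 11 to 19 with 1 library left out and 8 with HET replicate 4 and WT replicate 4 left out together, against 3.34% of all genes with every library, 2.79% to 4.47% and 2.39%. The count of genes without overlap (10, against 1.99% of all genes) was 10 to 16 with 1 library left out, against 3.35% to 4.58% of all genes in the same fits. With both libraries left out, log2 fold changes turned negative for Kif22 (-0.0073), Ccnb1 (-0.20), Cenpa (-0.026) and Plk1 (-0.49). With 1 library left out, that of Plk1 ran from -0.12 to 0.77, of Ndc80 from -0.52 to 0.14, of Ect2 from -0.53 to 0.044 and of Aurka from -0.45 to 0.65. Ect2 was 0.025 and Aurka 0.037 in limma-voom, and Aurka 0.015 in limma-trend on log2(TPM + 0.1). The cause of these changes was not tested.

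The replicate numbers did not pair the libraries: deviations of same-numbered libraries correlated at -0.05, 0.01, 0.003 and -0.03. With the number as a replicate block, 0 genes were called, 19 mitosis genes had an unadjusted p under 0.05, Ect2 stood at 0.0049 and Aurka at 0.13.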

Other observations

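Markers of germinal center B cells, which follow the pre-germinal center stage, did not all lie in the direction of the mitosis genes. Of 6 tested, 5 had log2 fold changes above 0. At an unadjusted p under 0.05, 3 were higher and 1 lower in HET, against 3.34% and 3.88% of all genes. Fas, a death receptor of germinal center B cells, was at 10.1, 15.7, 14.4 and 17.1 CPM in HET and at 7.51, 6.20, 6.18 and 7.20 CPM in WT, without overlap. Bcl6, the transcription factor of germinal center B cells, was the lower gene, with 45.6 ± 10.2 CPM in HET and 64.2 ± 15.4 CPM in WT (SD, n = 4 each). WT replicate 4 was not low over this list, at a median ratio of 0.941 to the other WT libraries. These genes were named after their values were seen.

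Libraries of 1 group also differed in the balance of the cycle genes. HET replicate 1 had the lowest S phase score of its group, 5.12, and the highest mitosis score minus S phase score of the 8 libraries, -0.35.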
